A study of Mus musculus with 7 samples.

Results

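The 42 genes described here are markers of Kupffer cells, the resident macrophages of the liver, and of the monocytes, neutrophils, lymphocytes, natural killer (NK) cells and dendritic cells found beside them. They were chosen by name from what is known of these cells, and all 42 of 42 were present among the 14851 genes of the table. By role they were 5 resident macrophage markers, 10 general macrophage markers, 10 monocyte and myeloid markers, 3 neutrophil markers, 8 lymphocyte and NK markers, 3 dendritic cell markers and 3 pan-leukocyte markers.

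Liver RNA was taken from 7 mice, 4 of the genotype Albumin-Cre; p53 FL/FL (called FL below) and 3 of the genotype Albumin-Cre; p53 WT/WT (WT), all male and on a C57BL/6J background (N10). Both groups carry Cre recombinase under the Albumin promoter, which is active in hepatocytes, so floxed *Trp53* is deleted in hepatocytes of FL mice while the leukocytes of both groups are not a target of the Cre. Every mouse was about 70 days old and received 1 intraperitoneal injection of CCl4, a hepatotoxin (1 mL/kg, from a 20% stock made up in corn oil), 8 h before sampling. Untreated livers were not analysed here, so the comparison is between genotypes after injury and not of injury itself. Some mice of both genotypes in the study also carried a fluorescent reporter allele, and which of these 7 did is not given in the sources used here. The source names of the WT mice share 1 prefix and those of the FL mice carry others, so source and genotype cannot be told apart. The methods state treatment at one time and matching by age and litter where possible, without naming the matched mice.

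Kupffer cells line the sinusoids, clear particles and complement-coated debris from portal blood, and are recognised in mice by receptors such as *Clec4f*, *Vsig4*, *Timd4* and *Marco*. After toxic injury, dying hepatocytes activate them, and neutrophils and monocytes enter from blood. Monocytes carry *Ly6c2* and *Itgam*, and as they become macrophages they take up dead cells and can express lipid-handling genes such as *Trem2* and *Gpnmb*. In whole liver the RNA of these cells is diluted by that of hepatocytes, and fewer cells of a type cannot be told apart from less RNA per cell.

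The values are the authors' normalised counts, gene counts divided by a scaling factor per library and rounded. They were compared with limma on log2(normalised count + 1) over the 12545 genes whose mean reached 10. The added 1 pulls the log2 fold changes of low genes towards 0. Positive values are higher in FL livers. The spacing of low values showed that libraries held an estimated 11.9 to 19.5 M reads on genes. *Trp53* ranged from 110 to 217 in FL livers and from 688 to 876 in WT livers, as the labels state (log2 fold change -2.47, standard error 0.23, limma adjusted p = 0.0447). Over all tested genes, 2 (0.0159%) had an adjusted p under 0.05. WT replicate 2 and FL replicate 3 stood apart from the other 5 livers across the transcriptome, so the genotype comparisons of single markers and of lists are also given without them.

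No marker differed between the genotypes beyond the spread between livers. Of the 42 markers 34 reached the mean of 10 and were tested, and 8 (*Ly6c2*, *Retnlg*, *Cd8a*, *Gzma*, *Gzmb*, *Siglech*, *Flt3* and *Xcr1*) were too low. Of the 34 tested, 0 had a limma adjusted p under 0.05 (each 0.999), and 0 had an unadjusted p under 0.05, against 1.59% of all tested genes at that limit that were higher and 1.6% that were lower. None had every FL liver above every WT liver, as 2.77% of all tested genes did, and none had every FL liver below, as 1.98% did. The log2 fold change was below 0 for 30 markers and above 0 for 4 (*Timd4*, *Cd163*, *Itgam* and *Klrb1c*), with a median of -0.28 beside 0.0069 over all tested genes.

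The direction turned when 1 liver was left out. Without WT replicate 2, 30 of the 34 log2 fold changes were above 0 and 4 below, with a median of 0.27. Without WT replicate 2 and FL replicate 3 together, 22 were above and 12 below, with a median of 0.078. The standard errors with all livers ranged from 0.19 to 1.59 log2 units, and the 95% intervals of 9 of the 34 held 2-fold changes in both directions. For 8 markers (*Clec4f*, *Vsig4*, *Timd4*, *Cd68*, *Csf1r*, *C1qa*, *Mrc1* and *Cd4*) the interval lay within 2-fold on either side of no change.

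**Figure D1:**
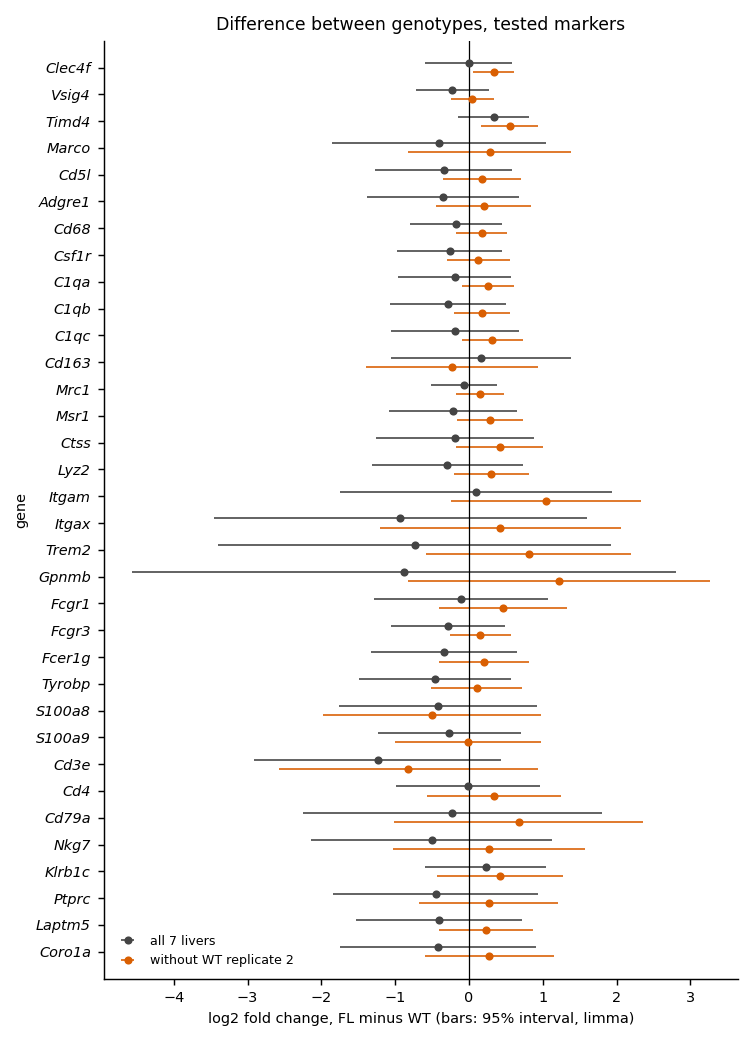
Log2 fold change (FL minus WT) of the 34 tested markers with 95% intervals from limma, with all 7 livers (grey) and without WT replicate 2 (orange). With all livers every interval crosses 0 and 30 points lie left of it, while without WT replicate 2 30 points lie right of it.

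Expressed per kilobase of exon, which allows genes to be compared, the highest of the 42 in the median liver were *C1qb* (806 normalised counts per kilobase), *Clec4f* (774), *Cd5l* (774) and *C1qa* (764), followed by *Lyz2* (448). The resident genes *Clec4f* and *Cd5l* and the complement genes *C1qb* and *C1qa* thus led the 42 markers. The other resident markers, *Vsig4* (261), *Marco* (129) and *Timd4* (61.2), lay among the general macrophage genes. *Cd68* (326) and *Ctss* (321) were above each of them. *Csf1r* (178), *Mrc1* (80.4), *Cd163* (75.8), *Adgre1* (67.6) and *Msr1* (19.2) were below *Vsig4*. All 5 resident markers were detected in every liver, as the tissue label requires. Lengths were of all annotated exons of a gene, so isoforms of unequal length move these levels.

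Among the resident macrophage markers, *Clec4f* (chromosome 6 of GRCm38, 83644542 to 83656187, minus strand), a lectin found in mouse on Kupffer cells, gave normalised counts of 1912, 1967, 2312 and 1780 in the FL livers, listed from replicate 1 to 4 here and below, and of 1636, 3191 and 1515 in the WT livers, listed from 1 to 3. The mean was 1993 ± 227 in FL (SD, n = 4) and 2114 ± 935 in WT (SD, n = 3), with a log2 fold change of -0.007 (95% interval -0.59 to 0.58). WT replicate 2 was the highest liver, and every FL liver lay above the other 2 WT livers. *Timd4* (Tim-4, a receptor for phosphatidylserine on dead cells that marks long-lived Kupffer cells) had 159, 133, 158 and 126 in FL livers and 108, 154 and 88 in WT livers (144 ± 17.0, SD, n = 4, and 117 ± 33.8, SD, n = 3). Its log2 fold change of 0.33 (95% interval -0.15 to 0.82, limma unadjusted p = 0.151, exact two-sided permutation p = 0.17) was the largest of the positive ones, and it was one of the few markers that were not highest in WT replicate 2.

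The other resident markers did not share this order. *Vsig4*, a complement receptor, had 388, 386, 421 and 334 in FL livers and 390, 648 and 350 in WT livers. *Cd5l*, a secreted protein of tissue macrophages, had 1647, 1472, 2260 and 1187 in FL and 1575, 4160 and 1274 in WT livers. For both, WT replicate 2 was the highest and the remaining WT livers lay among the FL livers. *Marco*, a scavenger receptor, varied most of the 5 across livers, with 256, 248, 615 and 136 in FL and 240, 921 and 206 in WT livers.

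Without WT replicate 2, *Clec4f* and *Timd4* were the markers with an unadjusted limma p under 0.05 (log2 fold changes 0.33 and 0.55, unadjusted p = 0.0256 and 0.0107, both adjusted p = 0.789). At that limit 2.71% of all tested genes were then higher and 3.24% lower. Every FL liver was above both remaining WT livers for 6 of the 34 markers (*Clec4f*, *Timd4*, *C1qa*, *C1qb*, *C1qc* and *Itgam*), against 8.96% of all tested genes, and below them for 0, against 10.7%. WT replicate 2 was the highest liver for 30 of the 34, as for 31.5% of all tested genes. Leaving it out therefore favoured a count above, here and in the next fit. The count below could rise only where it was the lowest WT liver, among these markers *Cd163*. Neither count is a result about the markers. With FL replicate 3 left out as well, the same 6 markers were above (12.7% of all tested genes) and *Cd3e* was below (14.6%). In that fit *Clec4f*, *Timd4* and *Cd3e* had an unadjusted limma p under 0.05 (4.49% of all tested genes higher, 5.2% lower), and the lowest adjusted p of any marker was 0.375. *Cd3e* had reached the mean of 10 only with these livers included, so its place in this fit is not support for a difference.

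**Figure D2:**
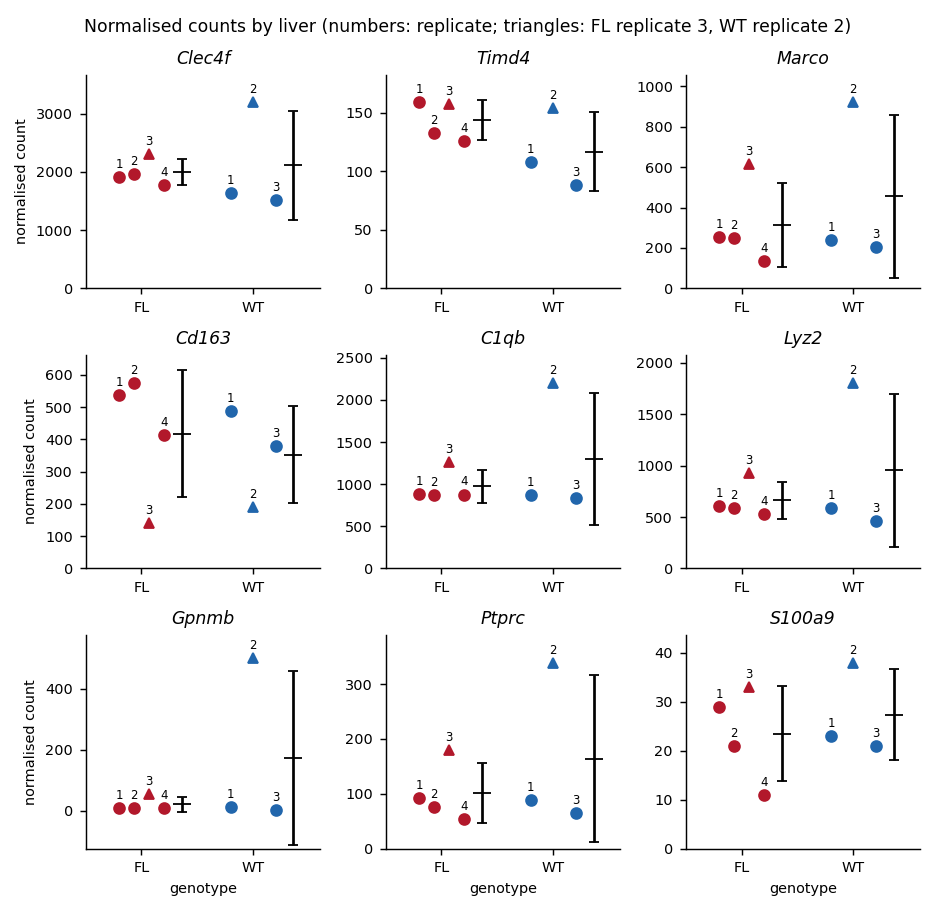
Normalised counts of 9 markers in each of the 4 FL and 3 WT livers, with the mean and SD of each genotype in black. WT replicate 2 (triangle) is the highest WT liver in every panel except that of *Cd163*, where it is at 190 beside 380 and 487.

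Of the 10 general macrophage markers, 9 had a log2 fold change below 0 and *Cd163* one above, with a median of -0.19 (0.19 without WT replicate 2). *Csf1r*, the receptor for the growth factor on which macrophages depend, had 1061, 1028, 1282 and 763 in FL livers and 960, 2090 and 906 in WT livers. *C1qb*, a chain of the complement protein C1q, had 881, 870, 1266 and 877 in FL livers and 869, 2206 and 833 in WT livers. Apart from WT replicate 2 and FL replicate 3, the *C1qb* values of the other 5 livers spanned 833 to 881. The 3 C1q chains form 1 protein and lie side by side on chromosome 4, and their RNAs kept a narrow ratio in all livers: 80.3 to 90.6 *C1qa* and 81.0 to 98.5 *C1qc* per 100 *C1qb*.

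*Cd163*, the haemoglobin and haptoglobin scavenger receptor, went the other way in the same 2 livers. Its normalised counts were 537, 576, 140 and 414 in FL livers and 487, 190 and 380 in WT livers (417 ± 197, SD, n = 4, and 352 ± 150.4, SD, n = 3), so that FL replicate 3 and WT replicate 2 held the lowest values. Set against *Clec4f*, it stood at 6.06 per 100 in FL replicate 3 and 5.95 in WT replicate 2, and at 23.3 to 29.8 in the other 5 livers. Set against *Mrc1*, the mannose receptor, it stood at 23.0 and 24.6 per 100, and at 80.7 to 117 in the others. Between genotypes its log2 fold change was 0.16 (95% interval -1.06 to 1.38). The remaining macrophage markers *Adgre1* (F4/80), *Cd68*, *Mrc1*, *Msr1* and *Ctss* had log2 fold changes from -0.35 to -0.07, and all were highest in WT replicate 2.

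The 250 bases upstream of the annotated start by RefSeq are shown for *C1qb*, which was high in WT replicate 2 and FL replicate 3, for *Cd163*, which was low in them, and for *Gpnmb*, the marker with the largest standard error. They are sequences of GRCm38.p6, written 5′ to 3′ on the strand of the gene: *C1qb* at chr4:136886201-136886450, minus strand, and *Cd163* at chr6:124304401-124304650 and *Gpnmb* at chr6:49036268-49036517, both plus strand. The GENCODE start of each of these genes lies 6 to 29 bases beyond the window, and for other genes the 2 annotations can differ by more. Capitals mark GAGGAA or its reverse complement TTCCTC, a core bound by PU.1, the factor that macrophages and B cells depend on.
*C1qb*: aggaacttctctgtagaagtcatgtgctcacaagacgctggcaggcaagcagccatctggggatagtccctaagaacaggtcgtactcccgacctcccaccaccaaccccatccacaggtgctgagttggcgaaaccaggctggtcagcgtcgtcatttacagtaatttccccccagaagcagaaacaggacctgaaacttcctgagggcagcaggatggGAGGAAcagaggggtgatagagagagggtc
*Cd163*: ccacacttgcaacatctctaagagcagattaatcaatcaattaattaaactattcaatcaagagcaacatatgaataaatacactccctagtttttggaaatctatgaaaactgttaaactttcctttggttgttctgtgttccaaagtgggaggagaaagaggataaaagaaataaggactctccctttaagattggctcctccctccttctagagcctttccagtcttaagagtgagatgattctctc
*Gpnmb*: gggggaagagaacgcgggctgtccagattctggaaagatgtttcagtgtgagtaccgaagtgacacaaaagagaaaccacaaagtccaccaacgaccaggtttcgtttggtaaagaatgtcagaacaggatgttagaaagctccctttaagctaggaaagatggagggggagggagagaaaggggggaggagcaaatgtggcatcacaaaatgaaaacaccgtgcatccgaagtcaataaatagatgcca
The 6-base motif was found once upstream of *C1qb*, on the given strand, and these letters are not in the *Cd163* and *Gpnmb* windows. The table held 36 of the 42 markers (not *Adgre1*, *Csf1r*, *C1qa*, *Msr1*, *Tyrobp* and *Cd4*), and 20 of the 36 (55.6%) had at least 1 copy in a window of 250 bases, compared with 25.9% of the 27025 genes of the table. A gene could have more than 1 window, any of which counted, and the number of windows per gene was not matched. A match of letters is a description and not a binding site.

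All 10 monocyte and myeloid markers were highest in WT replicate 2 and next highest in FL replicate 3, and the 9 tested had a median log2 fold change of -0.34 (0.42 without WT replicate 2). *Lyz2*, lysozyme of monocytes and macrophages, had 603, 584, 929 and 530 in FL livers and 590, 1808 and 465 in WT livers (662 ± 181, SD, n = 4, and 954 ± 742, SD, n = 3). *Tyrobp*, the signalling adaptor that *Trem2* uses, had 178, 150, 289 and 149 in FL and 189, 555 and 155 in WT livers. In both, the 5 other livers overlapped between genotypes.

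*Gpnmb*, *Trem2*, *Itgax* and *Ly6c2* were singled out after their values were seen. *Gpnmb*, a transmembrane glycoprotein of lipid-laden macrophages, had 9, 8, 56 and 9 in FL livers and 13, 502 and 2 in WT livers, so WT replicate 2 was 66.9-fold above the mean of the other WT livers. Ranked by that distance over all tested genes, *Gpnmb* was 5 and *Trem2* was 8. *Trem2*, a lipid receptor, had 14, 10, 48 and 18 in FL livers and 15, 280 and 7 in WT livers. *Itgax* (CD11c) had 9, 12, 58 and 9 in FL and 13, 206 and 10 in WT livers, and *Ly6c2*, which marks inflammatory monocytes, had 3, 3, 21 and 3 in FL and 4, 30 and 2 in WT livers. In the 5 other livers these 4 genes lay at 2 to 18 normalised counts in both genotypes. The 95% interval of the genotype difference ran from -4.56 to 2.81 log2 units for *Gpnmb*, so neither the sign nor the size of a difference was determined. *Itgam* (CD11b) had 16, 10, 41 and 11 in FL and 8, 60 and 7 in WT livers. The Fc receptors and their common chain (*Fcgr1*, *Fcgr3* and *Fcer1g*) were 2.49-fold to 3.33-fold above the other WT livers in WT replicate 2.

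Some of these values are uncertain because the transcripts share 36-base stretches with other genes, between which counting could split or drop reads. The share was 67.2% for *Itgam* (almost all with the gene model *Gm49368*), 27.3% for *Lyz2* (with *Lyz1*), 20.9% for *Ly6c2* (mostly with *Ly6c1*), 19.7% for *Klrb1c*, 12.0% for *Fcgr3* (with *Fcgr2b*), 11.2% for *Cd79a* and 9.9% for *Itgax* (with *Itgad*), and at most 3.8% for every other marker.

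Neutrophil markers were low in all livers, and 1 of the 3, *S100a9*, was highest in WT replicate 2 and next highest in FL replicate 3. *S100a8* and *S100a9*, the subunits of calprotectin that fill neutrophil cytoplasm, had 19, 8, 20 and 4 and 29, 21, 33 and 11 in FL livers. In WT livers *S100a8* had 22, 13 and 11 and *S100a9* had 23, 38 and 21. *Retnlg*, a resistin-like protein of neutrophils, had 9, 7, 4 and 2 in FL livers and 6, 9 and 4 in WT livers. The groups overlapped for all 3, and FL replicate 4 was the lowest liver for each of them. WT replicate 2 held 1.73 times the mean of the other WT livers for *S100a9* and 0.788 times for *S100a8*, which was highest in WT replicate 1, while *Retnlg* had equal highest values there and in FL replicate 1. Set against *Itgam*, *S100a9* stood at 63.3 per 100 in WT replicate 2 and at 80.5 in FL replicate 3, lower than in each of the other 5 livers, on counts that are small and, for *Itgam*, uncertain.

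Lymphocyte and NK markers were also low, from 0 to 41 normalised counts. *Cd4* (T helper cells) had 15, 10, 22 and 12 in FL livers and 10, 24 and 12 in WT livers. *Cd79a* (the B cell receptor chain) had 5, 14, 22 and 4 in FL and 9, 40 and 3 in WT livers. Both were highest in WT replicate 2 and next highest in FL replicate 3, and the genotypes overlapped. *Cd3e*, a chain of the T cell receptor complex, had 3, 3, 19 and 3 in FL livers and 13, 24 and 7 in WT livers, which gave the largest log2 fold change of the 34 in size, -1.24 (95% interval -2.91 to 0.44, limma unadjusted p = 0.126, exact two-sided permutation p = 0.2). Without FL replicate 3 the 3 remaining FL livers, all at 3, lay below every WT liver, and the unadjusted limma p was 0.0156 (adjusted p = 0.899). In that fit *Cd3e* was the 1 marker of the 34 that did not overlap, against 5.54% of all tested genes that lay below and 5.91% that lay above. It was also the 1 marker with an unadjusted limma p under 0.05, against 2.24% lower and 1.91% higher. However, *Cd3e* reached the mean of 10 only with FL replicate 3 included, the liver left out there. Neither value is therefore support for a difference. Values of 3 are small counts, so the size of the *Cd3e* difference is poorly determined. The cytotoxic gene *Gzma* was at 0 to 7 in FL livers and at 5, 41 and 7 in WT livers.

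Dendritic cell markers were too low to test. *Flt3*, the growth factor receptor of dendritic cell precursors, had 0, 1, 20 and 2 in FL livers and 4, 33 and 2 in WT livers, and *Siglech*, a lectin of plasmacytoid dendritic cells, had 5, 7, 7 and 3 in FL and 3, 20 and 6 in WT livers. *Xcr1* ran from 1 to 17. *Flt3* and *Xcr1* were next highest in FL replicate 3, after WT replicate 2.

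The pan-leukocyte markers sum over all these cells. *Ptprc* (CD45) had 93, 76, 179 and 54 normalised counts in FL livers and 88, 339 and 65 in WT livers (100.5 ± 54.7, SD, n = 4, and 164 ± 152, SD, n = 3). *Laptm5*, a lysosomal protein of haematopoietic cells, had 371, 341, 668 and 317 in FL and 368, 1281 and 325 in WT livers. *Coro1a*, an actin-binding protein of leukocytes, had 81, 96, 214 and 78 in FL and 86, 380 and 90 in WT livers. In all 3 the order was the same at the top, WT replicate 2 and then FL replicate 3, while the other WT livers lay between the lowest and highest of the other FL livers. The log2 fold changes were -0.45, -0.40 and -0.42, with 95% intervals that all crossed 0.

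**Figure D3:**
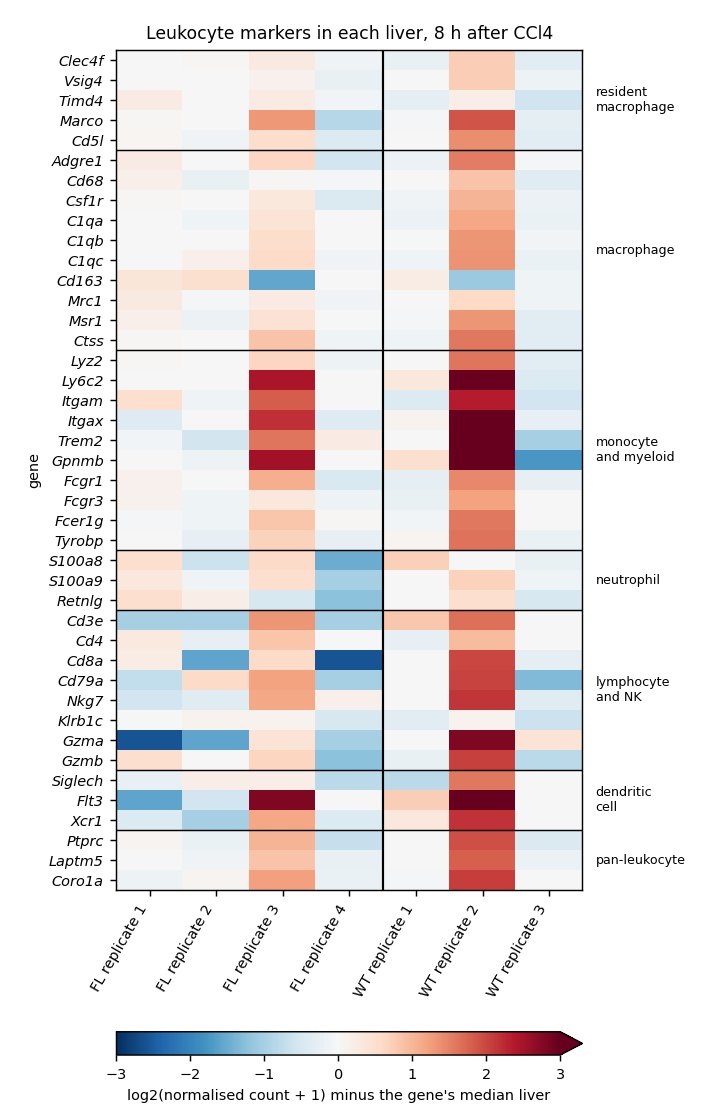
Log2(normalised count + 1) of the 42 markers in each liver, minus the median of the 7 livers for that gene, with FL livers on the left and role groups separated by lines. WT replicate 2 is the highest column for 37 markers and FL replicate 3 the highest FL column for 35, and *Cd163* is low in both.

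WT replicate 2 and FL replicate 3 were at the top for most of these genes. Of the 34 tested markers, 30 were highest of the 7 livers in WT replicate 2, as were 31.5% of all tested genes, and 28 were highest there and next highest in FL replicate 3, as were 18.8%. In WT replicate 2, 27 of the 34 were over 2-fold above the other WT livers, compared with 11.3% of all tested genes. In FL replicate 3, 11 were over 2-fold above the other FL livers, compared with 4%. The filter on the mean favours genes that are high in one of these livers. Among genes kept by their mean in the 6 livers other than the one examined, 24 of 31 markers were over 2-fold in WT replicate 2 (10.3% of all genes kept), without *Cd3e*, *Cd79a* and *Nkg7*, and 10 of 33 in FL replicate 3 (3.86%), without *Cd3e*. The median log2 distance of the tested markers was 1.53 in WT replicate 2 and 0.74 in FL replicate 3, beside 0.010 and 0.0004 over all tested genes. These are descriptions of 2 livers, with no replicate of either state.

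By role, the median fold of the tested markers in WT replicate 2 over the mean of the other WT livers was 2.03 for the 5 resident, 2.57 for the 10 general macrophage, 3.43 for the 9 monocyte and myeloid, 1.26 for the 2 neutrophil, 2.40 for the 5 lymphocyte and NK and 4.32 for the 3 pan-leukocyte markers. In FL replicate 3, against the mean of the other FL livers, these medians were 1.23, 1.36, 2.29, 1.78, 2.85 and 2.41. The lymphocyte and NK medians follow in part from the filter. *Cd3e*, *Cd79a* and *Nkg7* reached the mean of 10 only with WT replicate 2 included, and *Cd3e* only with FL replicate 3 included. *Cd4* and *Klrb1c*, which did not depend on it, were 2.18-fold and 1.56-fold above the other WT livers in WT replicate 2. No difference between roles was tested, and the dendritic cell markers were too low to enter. Against *Clec4f*, *Trem2* stood at 8.77 per 100 in WT replicate 2, 2.08 in FL replicate 3 and at most 1.01 in the others. *Marco* stood at 28.9 and 26.6 per 100 *Clec4f* in these livers and at 7.64 to 14.7 in the other 5. *Vsig4* kept between 18.2 and 23.8 per 100 *Clec4f* in all 7, with 18.2 to 20.29 in FL livers and 20.31 to 23.8 in WT livers. *Timd4* per 100 *Clec4f* was 6.76 to 8.32 in FL and 4.83 to 6.60 in WT livers. Neither ratio overlapped between genotypes, by a small margin in each, and as 2 of 15 ratios looked at they are given with no test. Across the 34 markers the distances in the 2 livers ranked alike (Spearman's rho 0.81 over genes, which share 2 libraries), as they did across all tested genes (0.75).

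**Figure D4:**
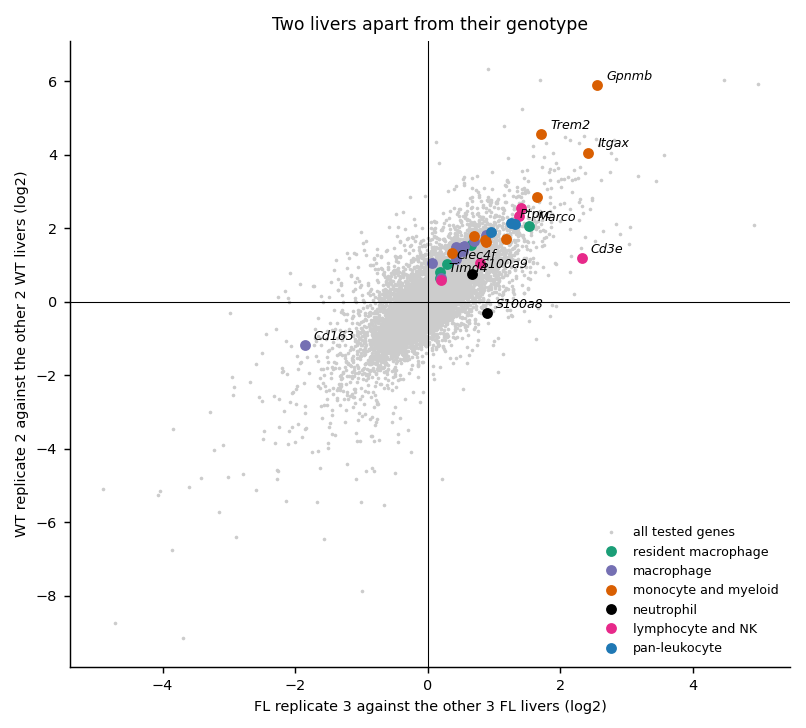
Log2 distance between FL replicate 3 and the rest of its genotype (horizontal) and between WT replicate 2 and the rest of its genotype (vertical), for all 12545 tested genes in grey and the 34 tested markers coloured by role. *Gpnmb*, *Trem2* and *Itgax* lie far up and to the right, and *Cd163* is alone among the markers below 0 on both axes.

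Further leukocyte genes, 95 in the table, followed the same livers. Of 70 tested, 0 had a limma adjusted p under 0.05. With an unadjusted limma p under 0.05 there was 1, against 1.59% of all tested genes higher and 1.6% lower. That gene was *Cd207*, a lectin of Langerhans and some dendritic cells, which was listed here among the further resident macrophage genes. It was lower in FL, with 40, 40, 42 and 58 in FL and 53, 74 and 87 in WT livers. Of these 70, 14 were above 0 and 56 below, with a median log2 fold change of -0.31. Without WT replicate 2, 50 were above and 20 below, with a median of 0.14, and without FL replicate 3 as well, 31 and 39, with a median of -0.026. By list, with all livers, the medians were -0.07 for further resident macrophage, -0.14 for monocyte, -0.23 for neutrophil, -0.30 for phagocyte, -0.63 for T and NK cell, -0.18 for B and plasma cell, -0.35 for dendritic cell and -0.46 for pan-leukocyte genes. Without WT replicate 2 the T and NK cell median stayed below 0 (-0.46) and the other 7 were above 0, the pan-leukocyte one at 0.085. The T and NK cell median rests on 5 tested genes of 15, of which 4 were then below 0 and 1 above. The neutrophil and the B and plasma cell medians rest on 4 tested genes each. Of the 95, 71 were highest in WT replicate 2, and all 14 further pan-leukocyte genes were highest there and next highest in FL replicate 3. *Cd14*, the co-receptor for bacterial lipopolysaccharide and named after its values were seen, resembled *Cd163*: 1492, 1828, 399 and 1900 in FL livers and 1689, 391 and 1360 in WT livers.

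Markers of other cells moved with the same livers. Of 8 stellate cell and fibroblast genes 8 were highest in WT replicate 2, with a summed level of 11368 normalised counts there, 2649 to 2992 in the other WT livers, 3991 in FL replicate 3 and 2809 to 2910 in the other FL livers. Of 8 proliferation genes 7 were highest in WT replicate 2 and next highest in FL replicate 3, with summed levels of 1320 and 492 beside 286 to 447 in the other 5. Between genotypes the stellate, proliferation and endothelial medians were -0.48, -0.84 and -0.02 with all livers and 0.13, 0.18 and 0.18 without WT replicate 2. *Mki67* had 26, 17, 75 and 18 in FL and 26, 380 and 38 in WT livers. Of 8 endothelial genes 6 were highest in WT replicate 2, with sums of 3580 to 4232 in FL and 3244 to 4680 in WT livers. The bile duct genes (0 of 4) and platelet genes (1 of 4) were not highest in that liver as a rule. The part of these cells or states in the leukocyte values was not tested.

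Red cell RNA, a measure of blood left in the tissue, did not follow those livers. Of the 6 red cell genes, the 4 globin genes were higher in every FL liver than in every WT liver, as were 2.77% of all tested genes. The groups overlapped for the remaining red cell genes. *Hbb-bs* had 1370, 1234, 1230 and 940 in FL and 673, 817 and 803 in WT livers (log2 fold change 0.63, limma unadjusted p = 0.0029, adjusted p = 0.999). The 6 red cell genes summed to 2764 to 3605 in FL livers and to 2280 to 2788 in WT livers. The part of blood in the leukocyte values was not tested. Of 8 hepatocyte genes 8 had a log2 fold change above 0 (7 without WT replicate 2), and their sum was 1557570 to 2038580 in FL and 1332052 to 1600732 in WT livers.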

How the data were processed

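RNA from 7 livers (4 FL, 3 WT, each from 1 mouse) was measured by stranded polyA RNA-seq. The authors mapped read pairs by Tophat with Bowtie against Ensembl release 75 of the mouse, counted genes by HTSeq and scaled the counts by DESeq2. The deposited values, rounded to whole numbers, were treated as a score and not as counts. The table had 14988 rows for 14851 identifiers. Repeated rows (120 identifiers) were identical and were used once. Symbols and coordinates were from GENCODE vM21 (GRCm38). Depth was estimated from the spacing of low values (1 read was worth 0.812 to 1.38).

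limma 3.58.1 in R 4.3.3 (lmFit, and eBayes with a trend) was run on log2(value + 1), two-sided, with no covariate, over genes whose mean reached 10, with Benjamini-Hochberg adjustment over all tested genes at 0.05. Exact permutation tests over the 7 livers cannot give less than p = 0.029. The fit was first tested on simulated data, with the spread between livers taken without FL replicate 3 and WT replicate 2. Of 200 changed genes 83% were called, as were 10 unchanged genes. The wider spread with those livers was not simulated, so this does not give the power for these markers. The markers and lists were chosen with earlier results of these data known. Values in every liver are given for the resident, neutrophil and pan-leukocyte markers and the 2 highest of each other role. Outside the 42, *Trp53* and the 2 genes with the smallest p in each list could be named. *Cd163*, *Itgam*, *Cd3e*, *Gzma*, *Itgax*, *Trem2*, *Gpnmb*, *Ly6c2* and *Cd14* were described further after their values were seen. Alternatives were pseudocounts of 0.5 and 5, no filter, a mean of 50, quantile or upper-quartile scaling, limma with no trend or with robust hyperparameters, replicate number as a block, and each liver left out. The log2 ratio of group means, the filter on 6 livers and the lists without WT replicate 2 were added after seeing the data. Tables and figures were made with Python 3.11.15, pandas 2.3.3, NumPy 2.4.6 and Matplotlib 3.10.9.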

Additional observations from a re-analysis of the deposited data

Results flagged for a closer look

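In 8 of the 34 tested markers 1 FL liver lay far from the other 3, by a gap that filled more of the group's range than Dixon's 95% critical value allows. All 8 were high in FL replicate 3. The nominal rate of such a gap is about 1 in 20 groups, or 1.7 of 34, with markers that do not vary independently. The share of all tested genes with such a gap was not computed, and FL replicate 3 stood apart across the transcriptome. The count is therefore not a result about these markers in particular. *Cd3e*, among the 8, reached the mean of 10 only with FL replicate 3 included. *C1qb* stood at 1266 beside 870 to 881 in the other FL livers and *Ctss*, a lysosomal protease, at 787 beside 401 to 446. *Itgax* stood at 58 beside 9 to 12, *Gpnmb* at 56 beside 8 to 9 and *Fcer1g* at 249 beside 127 to 144. *Cd3e* stood at 19 beside 3 in all others, *Laptm5* at 668 beside 317 to 371 and *Coro1a* at 214 beside 78 to 96. The WT group of 3 was not examined in this way.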

How the results depend on the processing

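Under every alternative 0 markers had an adjusted p under 0.05 (the lowest was 0.375). The count over all genes, 2, became 0 with a pseudocount of 5, with a mean of at least 50, without a trend and with the replicate block, 1 with quantile normalisation, and 0 to 6 with livers left out. With livers left out, 0 to 3 markers had an unadjusted p under 0.05, 0 to 7 had groups that did not overlap, and the median log2 fold change ran from -0.54 to 0.27. The counts without FL replicate 3 include *Cd3e*, which reached the mean of 10 only with that liver included. Leaving out WT replicate 2 turned the sign of 28 markers. The log2 fold changes of 30 markers changed sign when livers were left out, over these ranges: *Clec4f* -0.20 to 0.33, *Vsig4* -0.40 to 0.04, *Marco* -0.80 to 0.28, *Cd5l* -0.68 to 0.17, *Adgre1* -0.65 to 0.20, *Cd68* -0.45 to 0.17, *Csf1r* -0.48 to 0.12, *C1qa* -0.42 to 0.26, *C1qb* -0.53 to 0.17, *C1qc* -0.46 to 0.32, *Cd163* -0.23 to 0.62, *Mrc1* -0.21 to 0.15, *Msr1* -0.54 to 0.28, *Ctss* -0.54 to 0.42, *Lyz2* -0.68 to 0.30, *Itgam* -0.42 to 1.05, *Itgax* -1.69 to 0.42, *Trem2* -1.76 to 0.81, *Gpnmb* -2.48 to 1.22, *Fcgr1* -0.41 to 0.46, *Fcgr3* -0.56 to 0.15, *Fcer1g* -0.63 to 0.20, *Tyrobp* -0.81 to 0.11, *S100a9* -0.46 to 0.04, *Cd4* -0.25 to 0.34, *Cd79a* -1.01 to 0.67, *Nkg7* -0.99 to 0.27, *Ptprc* -0.92 to 0.26, *Laptm5* -0.76 to 0.23 and *Coro1a* -0.79 to 0.28. With quantile normalisation *Cd4* was at 0.23 and *Cd79a* at 0.04. Same-numbered livers of the 2 genotypes deviated from their group means with correlations of 0.438, -0.483 and -0.661. WT replicate 2 and FL replicate 3 weigh on these values, which therefore cannot show whether the numbers pair the samples. The block also drops FL replicate 4. Under the block the median was -0.166, with *Clec4f* at 0.05, *Fcgr1* at 0.11, *S100a9* at 0.04, *Cd4* at 0.06 and *Cd79a* at 0.11. Depth limits the lymphocyte, dendritic and neutrophil markers, most of which lay under 40 normalised counts.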
